A study of Rattus norvegicus with 14 samples.

Results

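The chloride cotransporters and the kinases that control them were followed in RNA-seq values of rat hippocampal cultures treated with allopregnanolone (Allo), a progesterone metabolite and positive modulator of the GABA-A receptor. The members were 9 genes chosen by symbol for their role. They are the cotransporter genes Slc12a2, Slc12a5, Slc12a4 and Slc12a7, the kinase genes Wnk1, Wnk2, Stk39 and Oxsr1, and the chloride channel gene Clcn2. All 9 were among the 18239 genes listed for neuron cultures and the 31791 listed for astrocyte cultures, and all 9 passed the minimum mean of 10 normalized counts in both. Of the 14 libraries, 8 came from neuron cultures and 6 from astrocyte cultures, all made from the hippocampus of Sprague Dawley fetuses at embryonic day 18. Every culture was kept in AM medium, a supplement-reduced medium that serves as an in vitro aging model, so that the vehicle group carried it as well. For neurons the medium held less B27 supplement, and for astrocytes it held charcoal-stripped serum. Astrocyte cultures were grown from mixed glia that had been shaken to remove microglia and oligodendrocytes, and no such step is described for the neurons. Neurons at day 10 spent 4 h in AM medium and then 16 h with vehicle (AM-Veh, 0.001% ethanol, 4 libraries) or 100 nM Allo (AM-Allo, 4 libraries). Astrocytes spent 24 h in AM medium and then 24 h with vehicle (3 libraries) or 100 nM Allo (3 libraries). Neuron replicates carry numbers in 2 parts (1-1, 1-2, 2-1 and 2-2), and libraries that share the first part are called set 1 and set 2 here. The labels do not say what the first part marks, nor that the libraries came from separate cultures, so p-values measure the spread between these libraries.

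When GABA opens its receptor, chloride flows in or out of the cell according to the chloride gradient. NKCC1, the product of Slc12a2, carries sodium, potassium and chloride into the cell, and KCC2, the neuron-specific product of Slc12a5, carries potassium and chloride out. Immature neurons have much NKCC1 and little KCC2, so that GABA depolarizes them, and KCC2 increases as they mature. KCC1 (Slc12a4) and KCC4 (Slc12a7) are potassium-chloride cotransporters found in many cell types. WNK kinases sense chloride and act through SPAK (Stk39) and OSR1 (Oxsr1), which phosphorylate the cotransporters, activating NKCC1 and inhibiting the KCCs. Clcn2 encodes ClC-2, a chloride channel of the plasma membrane of neurons and glia. The question for these genes was how their RNA stood in each culture and whether it differed with Allo, since the direction of chloride flow sets what a GABA-A modulator does to a cell.

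The cultures held more than their named cell type. In neuron libraries, Tubb3 (neuronal tubulin) was at 8417 to 11140 normalized counts and Syt1 (a synaptic vesicle protein) at 3282 to 4602, against 25.5 to 36.6 and 8.54 to 26.6 in astrocyte libraries. Rbfox3, which encodes the neuronal nuclear antigen, was at 390 to 516 in neuron libraries and at 0 to 4.995 in astrocyte libraries. The other listed neuron markers separated the cultures less, Map2 being at 23908 to 27068 in neuron and 3268 to 4066 in astrocyte libraries, and Stmn2 higher in astrocyte libraries (20946 to 22152) than in neuron libraries (8802 to 11475). Gfap, the astrocyte filament gene, was nonetheless at 68164 to 118740 in neuron libraries, and the 8 oligodendrocyte lineage markers summed to 38365 to 45308 there against 3917 to 4359 in astrocyte libraries. Of 6 microglial markers, 4 were listed for neurons with a sum of 13.7 to 41.3, and all 6 for astrocytes with a sum of 1034 to 1360. The 5 mesenchymal markers summed to 32683 to 39627 in astrocyte libraries, most of it the collagen gene Col1a1 (21319 to 25406), against 588 to 1857 in neuron libraries. Col3a1 and Pdgfrb were also higher in astrocyte libraries. Dcn went the other way, at 1.94 to 8.29 in astrocyte and 93.9 to 266 in neuron libraries. Lum was low in both, at 6.49 to 13.9 and 4.47 to 17.6. The neuron cultures were therefore mixtures of neurons and glia, and in such bulk samples a smaller number of cells of a type cannot be told apart from less RNA per cell. Libraries held an estimated 19600000 to 25100000 reads on genes in neurons and 22100000 to 28300000 in astrocytes. At that depth 1 read was worth 0.849 to 1.14 normalized counts, so the lowest member, Slc12a5 in astrocytes, still rested on about as many reads as its 93.1 to 123 normalized counts.

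The stretches before the start of the cotransporter genes Slc12a5 and Slc12a7 are shown because Slc12a5 had the lowest p of the members for a different Allo effect in the sets, and Slc12a7 the largest difference between the sets. They cover the 250 bases before the annotated start on the gene's own strand, from RefSeq on build GRCr8, which is not the build the study mapped to. Capitals mark matches on either strand to 3 short motifs, the GC box GGGCGG, the E-box CACGTG, which USF proteins bind, and GCGNGGGCG, which EGR proteins bind. The last can share letters with a GC box, and GC boxes can overlap each other.
Slc12a5 (chr3:174115583-174115832, + strand): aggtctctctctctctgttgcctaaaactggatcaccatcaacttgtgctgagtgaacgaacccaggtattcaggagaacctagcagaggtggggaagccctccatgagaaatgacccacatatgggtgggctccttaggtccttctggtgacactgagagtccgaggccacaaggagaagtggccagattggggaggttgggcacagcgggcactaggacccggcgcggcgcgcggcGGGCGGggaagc
Slc12a7 (chr1:31354626-31354875, - strand): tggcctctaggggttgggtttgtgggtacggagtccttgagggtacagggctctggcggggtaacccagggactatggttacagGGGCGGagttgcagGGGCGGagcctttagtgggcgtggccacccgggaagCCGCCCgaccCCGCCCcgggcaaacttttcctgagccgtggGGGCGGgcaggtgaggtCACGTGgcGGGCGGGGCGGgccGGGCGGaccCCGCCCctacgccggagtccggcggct
The Slc12a5 window held 1 GC box and no match to the E-box or the EGR motif. The Slc12a7 window held 9 GC boxes and 1 E-box. Over the same window of 33469 rat promoters, 30.5% held the GC box, 5.59% the E-box and 4.29% the EGR motif. Windows were found for all 9 members, and Slc12a7 was the member with an E-box. None of the 9 held the EGR motif, which says only that these letters are not in these windows.

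Slc12a5 and Wnk2 were the members with much larger shares in neuron than in astrocyte cultures. Because the tables of the cultures were normalized separately, levels across them are given as a share of each table's total, in normalized counts per 1000000 (CPM), as a description with no test. Slc12a5 was at 48.7 ± 3.17 CPM in AM-Veh neurons (SD, n = 4) and at 4.33 ± 0.36 in AM-Veh astrocytes (SD, n = 3), an 11.3-fold difference in these shares. Wnk2, which encodes a WNK kinase of neural tissue, was at 122 ± 4.24 and 21.6 ± 0.59 CPM, a 5.65-fold difference. Stk39 was 1.79-fold higher in the neuron table (69.5 ± 3.29 against 38.8 ± 1.26 CPM) and Slc12a4 1.22-fold higher (142 ± 7.52 against 116 ± 5.34).

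Slc12a2, Slc12a7, Wnk1 and Oxsr1 had the larger share in astrocyte cultures. Slc12a7 was at 69.5 ± 2.37 CPM in AM-Veh astrocytes and at 18.1 ± 3.48 in AM-Veh neurons, 3.84-fold apart. Slc12a2 was at 243 ± 5.56 and 138 ± 5.17 CPM, 1.75-fold apart, and was thus abundant in both cultures. Wnk1, the most widely expressed WNK kinase gene, was at 342 ± 2.85 and 244 ± 6.14 CPM, and Oxsr1 at 91.8 ± 0.65 and 74.9 ± 3.41. For 8 of the 9 members no neuron library overlapped with any astrocyte library, and Clcn2 was the exception, with 23.7 to 30.1 CPM in astrocytes and 26.0 to 33.2 in neurons. Of the 14384 genes tested in both tables, 70.7% did not overlap either. Neuron cultures contained much RNA of astrocyte and oligodendrocyte lineage markers, and how much of their Slc12a2 and Slc12a7 RNA came from glia was not tested. The part of cells with collagen RNA in the astrocyte values was not tested either. Levels of different members within a culture are not ranked, because the files give no transcript lengths.

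**Figure D1:**
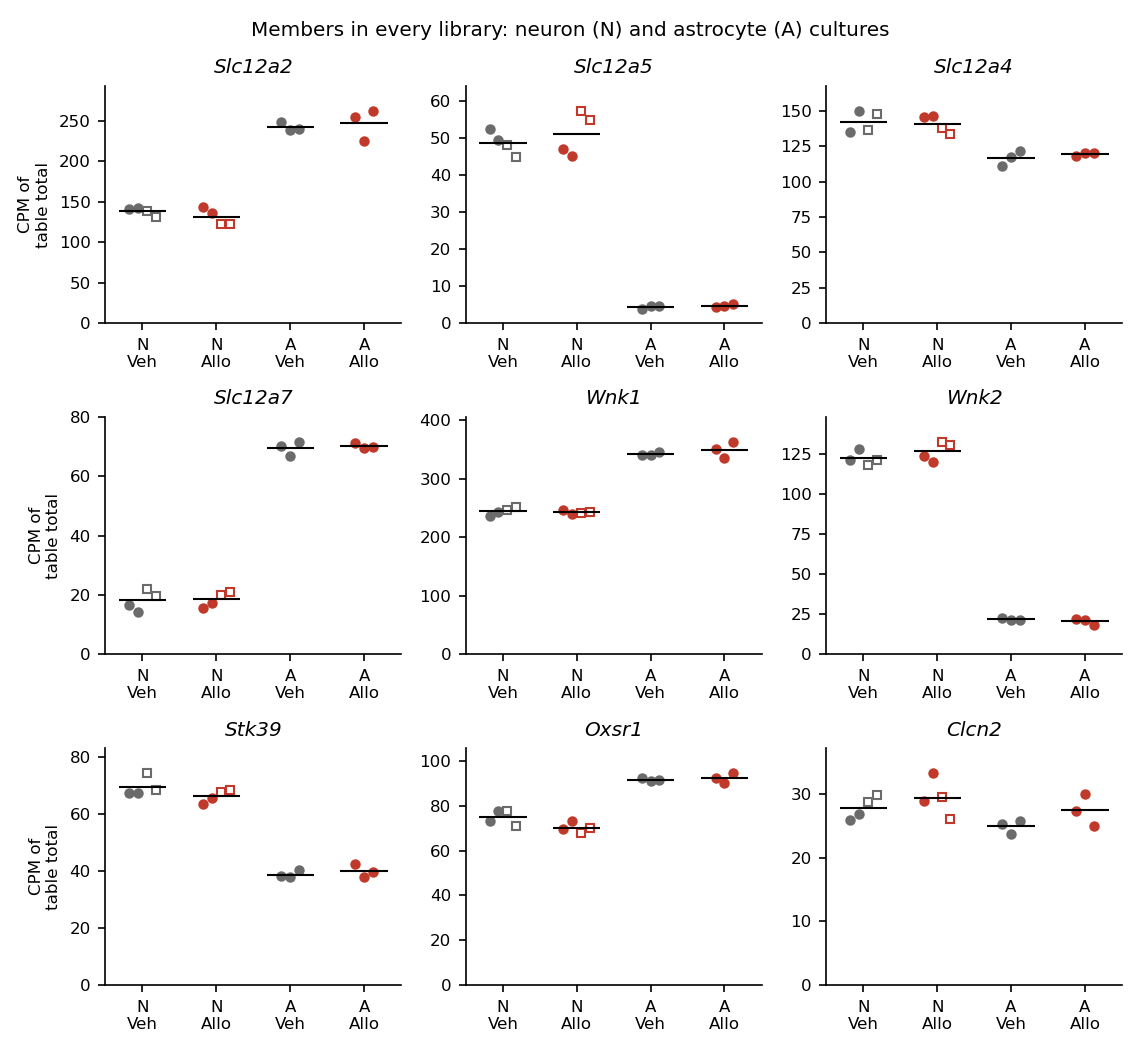
Share of each member in every library, in CPM of the table's total, for neuron (N) and astrocyte (A) cultures. Grey points are AM-Veh and red points AM-Allo, open squares are neuron libraries of set 2, filled circles are neuron libraries of set 1 and astrocyte libraries, and lines are group means. Slc12a5 and Wnk2 were high in neurons, Slc12a7 and Slc12a2 in astrocytes, and treatment groups lay close together.

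The balance of Slc12a2 to Slc12a5, taken as the ratio of their normalized counts in each library, was 2.15 to 3.05 in neuron cultures and 47.8 to 63.6 in astrocyte cultures. The ratio also depends on the lengths of the 2 transcripts, so only its differences between libraries are read. It is a ratio over the whole culture, and neuron libraries held astrocyte markers at a sum of 170389 to 231300 normalized counts. The part of glial RNA and of the mix of cells in the ratio was not tested, so it is not a value for neurons alone. In AM-Veh neuron cultures the ratio was 2.70, 2.87, 2.89 and 2.93, with a mean of 2.85 ± 0.0991 (SD, n = 4). In AM-Allo neurons it was 3.05 and 3.01 in set 1 and 2.15 and 2.22 in set 2, with a mean of 2.61 ± 0.488 (SD, n = 4). The AM-Allo libraries of set 1 thus lay above all AM-Veh libraries and those of set 2 below all of them. Over the 4 libraries of each group, the mean log2 ratio was 0.14 lower in AM-Allo (log2 difference −0.14, two-sided exact permutation p = 0.429, adjusted p = 0.5 over the 2 cell types), where the smallest p of this design is 0.0286. In astrocytes the ratio was 63.6, 53.3 and 52.4 with vehicle and 58.8, 47.8 and 51.0 with Allo, and the groups overlapped. The mean log2 difference was −0.10 (exact permutation p = 0.5, adjusted p = 0.5), and 3 libraries against 3 cannot give a p under 0.1.

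**Figure D2:**
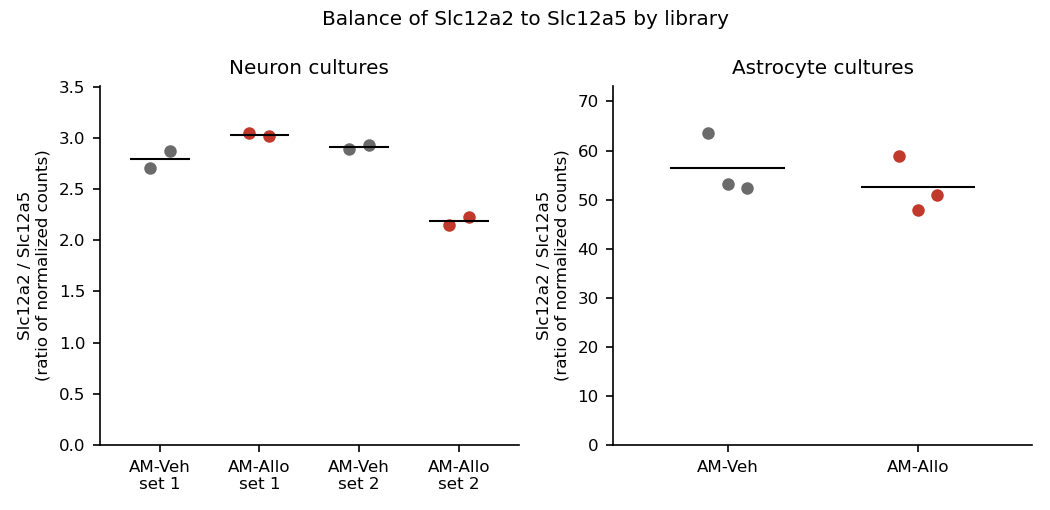
Ratio of Slc12a2 to Slc12a5 normalized counts in each library, with group means as lines, for neuron cultures by set and for astrocyte cultures. In neurons the AM-Allo ratios were 3.01 and 3.05 in set 1 and 2.15 and 2.22 in set 2, on either side of the AM-Veh ratios of 2.70 to 2.93. The vertical axes differ between the panels.

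With Allo, no member passed the test in neuron cultures. AM-Allo was compared with AM-Veh by limma on log2 of the normalized count plus 1, with Benjamini-Hochberg adjustment over all 15314 genes tested, and differences below are on that log2 scale with 95% intervals. Of all genes, 0.0261% passed at an adjusted p under 0.05 and 5.69% at an unadjusted p under 0.05, and of the 9 members 0 passed at either. The AM-Allo and AM-Veh libraries overlapped for all 9 members, while 3.95% of all genes showed no overlap. The median log2 difference of the members was −0.01 and that of all tested genes −0.0015.

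Slc12a2, the chloride importer gene, was at 3113, 3126, 3101 and 2924 normalized counts in AM-Veh neurons and at 3153, 2994, 2730 and 2729 in AM-Allo neurons, in the order 1-1, 1-2, 2-1 and 2-2. The lowest values were those of the AM-Allo libraries of set 2, and the groups overlapped through set 1. The log2 difference was −0.08 (95% interval −0.19 to 0.03, adjusted p = 0.942) in the fit without a replicate block, and p-values with a block are given below. Slc12a5, the neuronal exporter gene, was at 1152, 1088, 1074 and 999 with vehicle and at 1034, 993, 1269 and 1228 with Allo. Its log2 difference was 0.06 (interval −0.12 to 0.24, adjusted p = 0.996).

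Among the kinases, Oxsr1 was at 1609, 1712, 1732 and 1583 with vehicle and at 1535, 1616, 1506 and 1570 with Allo. Its log2 difference was −0.09 (interval −0.18 to 0.00, unadjusted p = 0.0515, adjusted p = 0.878), the lowest unadjusted p of the 9 members. With the replicate number as a block, Oxsr1 and Slc12a2 had unadjusted p-values of 0.0322 and 0.0325, which made the unadjusted count 2 of 9 where 10.7% of all genes passed, and their adjusted p-values were 0.410 and 0.411, where 0.607% of all genes passed at an adjusted p under 0.05. With the first part of the number as the block, the unadjusted values were 0.0325 and 0.0261, and 11.0% of all genes passed unadjusted and 0.679% adjusted. Stk39 had a log2 difference of −0.06 (interval −0.17 to 0.04), Wnk2 one of 0.05 (−0.04 to 0.14) and Wnk1 one of −0.01 (−0.08 to 0.06). The other cotransporter genes, Slc12a4 and Slc12a7, had log2 differences of −0.01 (−0.11 to 0.08) and 0.04 (−0.28 to 0.36). Clcn2 was at 571 to 666 with vehicle and at 582 to 732 with Allo (log2 difference 0.08, interval −0.09 to 0.25).

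In astrocyte cultures no member passed the test either. Of 15380 genes tested, 0.0065% passed at an adjusted p under 0.05 and 7.01% at an unadjusted p under 0.05, and of the 9 members 0 passed at either. Groups without overlap were seen for 12.5% of all genes and for 0 of 9 members. Slc12a2 was at 5921, 5719 and 5737 normalized counts with vehicle and at 6073, 5375 and 6286 with Allo, the Allo values lying both above and below all vehicle values (log2 difference 0.03, interval −0.08 to 0.13, adjusted p = 0.954). Slc12a5 was at 93.1, 107 and 109 with vehicle and at 103, 112 and 123 with Allo (log2 difference 0.13, interval −0.18 to 0.43, adjusted p = 0.902). Clcn2 was at 602, 567 and 615 with vehicle and at 651, 717 and 598 with Allo (log2 difference 0.14, interval −0.02 to 0.29, adjusted p = 0.769). Wnk2 had a log2 difference of −0.09 (interval −0.26 to 0.08), and the remaining 5 members lay between 0.01 and 0.05. Without the AM-Allo library 2, Slc12a2 had an unadjusted p of 0.0263, and without the AM-Allo library 3, Clcn2 had one of 0.0145, with no adjusted p under 0.05 for a member in either case.

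**Figure D3:**
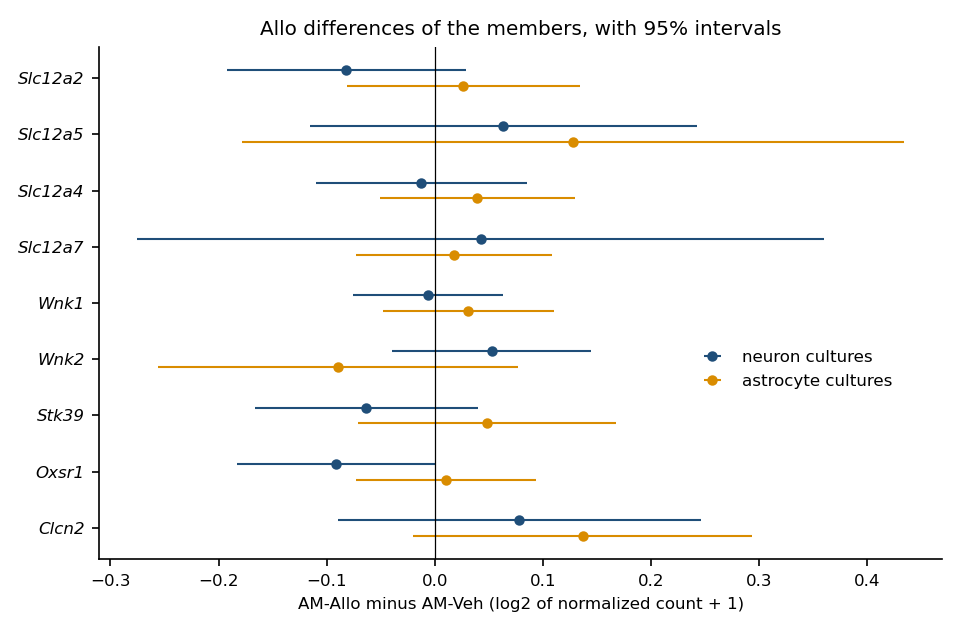
Log2 difference between AM-Allo and AM-Veh for each member in neuron (blue) and astrocyte (orange) cultures, with 95% intervals from limma. The intervals are from the fit without a replicate block. All of them include 0, and that of Oxsr1 in neurons reaches from −0.18 to 0.00.

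The sets of neuron libraries gave different Allo differences for Slc12a5, although the difference between them missed the adjusted threshold. This comparison was added after the values were seen. In set 1, Slc12a5 was at 1152 and 1088 with vehicle and at 1034 and 993 with Allo, and in set 2 at 1074 and 999 with vehicle and at 1269 and 1228 with Allo. The AM-Allo libraries lay below both vehicle libraries in set 1 and above both in set 2. The log2 difference was −0.14 in set 1 (interval −0.26 to −0.03, adjusted p = 0.525, limma on 2 libraries against 2) and 0.27 in set 2 (0.14 to 0.39, adjusted p = 0.0289). Set 2 minus set 1 was 0.41 (interval 0.24 to 0.58, unadjusted p = 0.000115, adjusted p = 0.100), which ranked 17 of 15314 genes by p. Across all genes 0.0784% passed this test at an adjusted p under 0.05 and 9.53% at an unadjusted p under 0.05, and of the members 0 and 3 of 9 did. An opposite direction in the sets, with no overlap within either, was seen for 1 member, Slc12a5, and for 6.95% of all genes.

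The other members with an unadjusted p under 0.05 for this difference between the sets were Wnk2 and Clcn2. Wnk2 was at 2659 and 2813 with vehicle and 2729 and 2637 with Allo in set 1, and at 2634 and 2700 with vehicle and 2930 and 2917 with Allo in set 2. Its log2 difference was −0.03 in set 1 and 0.13 in set 2 (set 2 minus set 1 0.16, adjusted p = 0.374). Clcn2 was at 571 and 589 with vehicle and 636 and 732 with Allo in set 1, and at 640 and 666 with vehicle and 657 and 582 with Allo in set 2. Its log2 difference was 0.23 in set 1 and −0.08 in set 2 (set 2 minus set 1 −0.31, adjusted p = 0.382). Slc12a2 had log2 differences of −0.02 and −0.14 (set 2 minus set 1 −0.12, unadjusted p = 0.0556). Stk39 and Oxsr1 had log2 differences of −0.06 and −0.08 in set 1 and −0.07 and −0.11 in set 2.

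Within set 2 alone, 1 of 9 members, Slc12a5, passed at an adjusted p under 0.05, where 1.74% of all genes did, and 3 of 9 at an unadjusted p, where 12.5% did. Within set 1 alone, 0 of 9 members passed the adjusted threshold and 2 of 9 the unadjusted one, against 0.222% and 7.97% of all genes. The balance followed the same split, and because it is computed from Slc12a5 and Slc12a2, it is not a separate result. Its mean log2 ratio differed by 0.12 with Allo in set 1 and by −0.41 in set 2. The difference between these of −0.53 had an exact permutation p of 0.0556, the smallest that 36 arrangements within the sets can give. Treatment labels were exchanged within each set, so this p refers to no Allo difference in either set. It cannot test whether the differences in the sets are equal.

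**Figure D4:**
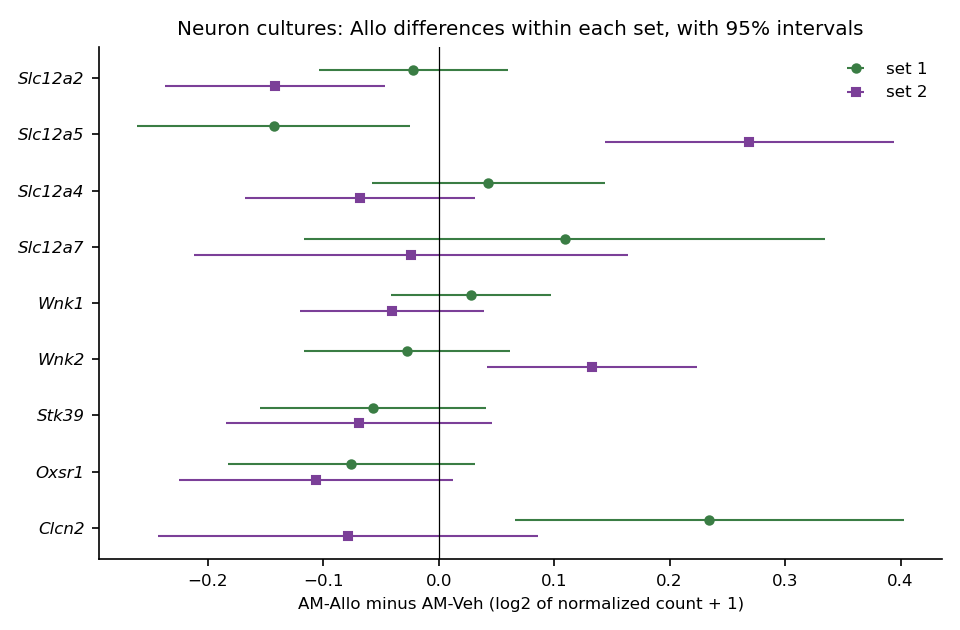
Log2 difference between AM-Allo and AM-Veh for each member in neuron cultures, computed within set 1 (green circles) and within set 2 (purple squares), with 95% intervals from limma. Slc12a5 lay at −0.14 in set 1 and at 0.27 in set 2, and Clcn2 at 0.23 and −0.08.

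Neuron markers did not all follow Slc12a5. Of 6 neuron markers, 5 were listed (Snap25 was not matched) and none was at 0. Their summed level was 46805 to 50027 normalized counts with vehicle and 48577 to 50335 with Allo in set 1, and 45411 to 48842 with vehicle and 53284 to 54604 with Allo in set 2. Map2 made up the largest part of this sum. In set 2 the AM-Allo libraries lay above both vehicle libraries for Map2, Tubb3 and Stmn2, with Tubb3 at 9211 and 8417 with vehicle and at 11140 and 10857 with Allo, while for Syt1 (4523 and 3836 against 4602 and 4198) and Rbfox3 (455 and 448 against 516 and 442) they overlapped. In set 1 they lay below both vehicle libraries for Syt1 (4222 and 3771 against 3522 and 3282) and Rbfox3 (502 and 476 against 453 and 390), as for Slc12a5, above both for Map2 and Tubb3, and between them for Stmn2. The sum of 6 astrocyte markers was 219072 to 231300 with vehicle and 211466 to 224796 with Allo in set 2. The part of these markers in the Slc12a5 and Wnk2 values was not tested.

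**Figure D5:**
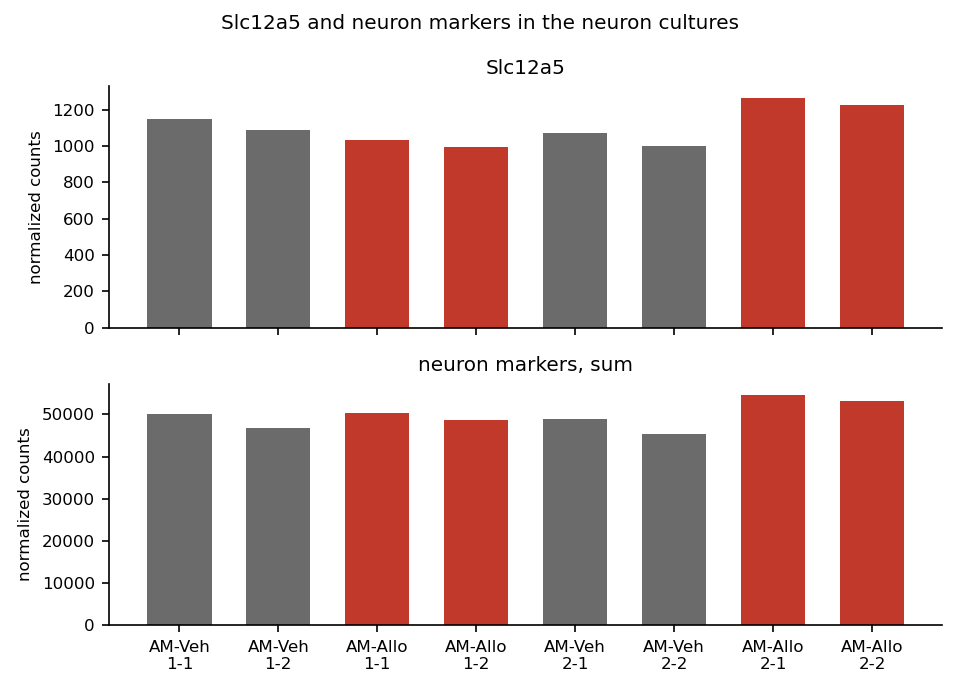
Normalized counts of Slc12a5 (top) and summed normalized counts of the neuron markers (bottom) in each neuron library, with AM-Veh in grey and AM-Allo in red. In set 2, both AM-Allo libraries stood above both AM-Veh libraries in each panel, Slc12a5 with 1269 and 1228 and the markers with 53284 to 54604.

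Apart from treatment, the neuron sets differed in Slc12a7, the KCC4 gene. It was at 364 and 311 normalized counts with vehicle and 345 and 383 with Allo in set 1, and at 493 and 438 with vehicle and 442 and 472 with Allo in set 2. Every set 2 library lay above every set 1 library. The log2 difference was 0.40 (interval 0.25 to 0.55, adjusted p = 0.00109, limma with treatment as a covariate). Slc12a2 was lower in set 2, with a log2 difference of −0.11 (adjusted p = 0.0305), but its libraries overlapped between the sets. That call was lost without the treatment covariate (adjusted p = 0.0771), without a variance trend (0.142), and without the AM-Veh library 2-2 (0.0615) or any of the AM-Allo libraries 1-1, 1-2, 2-1 and 2-2 (0.134, 0.0620, 0.0901 and 0.101). Stk39 did not overlap between the sets (1482, 1486, 1404 and 1450 against 1660, 1531, 1507 and 1533) and had a log2 difference of 0.10 (adjusted p = 0.0704), which passed without the AM-Veh library 2-2 (0.0343). In all, 2 of 9 members passed at an adjusted p under 0.05 and 3 at an unadjusted p, where 17.2% and 29.3% of all genes did, and 2 of 9 did not overlap, where 19.6% did. Some markers of other cell types differed with the sets, and their part was not tested. The astrocyte marker sum was 170389 to 181470 in set 1 and 211466 to 231300 in set 2. Gfap was at 68164 to 78721 and 107404 to 118740, and Aqp4 and S100b were also higher in set 2. Slc1a3 (57776 to 61350 and 57387 to 62381), Slc1a2 and Aldh1l1 overlapped between the sets. The 5 mesenchymal markers summed to 856 to 1857 in set 1 and 588 to 715 in set 2. Of these, Lum overlapped and Pdgfrb went the other way (308 to 369 and 394 to 474). The 8 oligodendrocyte lineage markers summed to 42276 to 45308 in set 1 and 38365 to 39078 in set 2. Among them, Sox10 went the other way (751 to 918 and 989 to 1326), and Cspg4 and Mog overlapped. The 4 proliferation markers summed to 2810 to 3186 in set 1 and 2091 to 2303 in set 2.

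Genes that work with the members were read from 5 lists of 49 genes, covering other cotransporters, WNK pathway components, chloride channels, chloride and bicarbonate transporters, and partners of KCC2. In neuron cultures 40 of them were tested and 0 passed at an adjusted p under 0.05, and 4 passed at an unadjusted p, 3 higher and 1 lower, where 0.0261% and 5.69% of all genes did. All 4 were in the KCC2 partner list, and 2 of them, Egr4 and Usf1, showed no overlap between the groups, as did 3.95% of all genes. Egr4, an immediate early transcription factor reported to act on Slc12a5, was at 29.9, 26.6, 31.0 and 29.2 normalized counts with vehicle and at 26.4, 9.99, 10.1 and 10.5 with Allo (log2 difference −1.11, unadjusted p = 0.00425, adjusted p = 0.589). Counts this low rest on few reads. Usf1, an E-box binding factor, was at 1271 to 1293 with vehicle and 1303 to 1422 with Allo (log2 difference 0.09, adjusted p = 0.792). Neto2 and Epb41l1, which encode proteins that bind KCC2, had log2 differences of 0.11 (adjusted p = 0.855) and 0.11 (0.819). With the replicate number as a block, 8 of the 40 pathway genes had an unadjusted p under 0.05 (10.7% of all genes did), and with its first part 11 (11.0% of all genes).

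Within set 2 alone, Wnk3 and Mlc1 passed at an adjusted p under 0.05, 2 of the 40 pathway genes, where 1.74% of all genes did. Wnk3, a further WNK kinase gene, was at 351 and 275 with vehicle and 434 and 451 with Allo in set 2 (log2 difference 0.51, adjusted p = 0.0289), and at 395 and 362 with vehicle and 400 and 336 with Allo in set 1. Mlc1, which encodes an astrocyte membrane protein, was at 12571 and 12265 with vehicle and 10968 and 11402 with Allo in set 2 (log2 difference −0.15, adjusted p = 0.0484). These genes were singled out after their values were seen. Set 2 minus set 1 of the Allo difference had adjusted p-values of 0.274 for Wnk3 and 0.191 for Mlc1.

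Between the neuron sets, 9 of the 40 pathway genes passed at an adjusted p under 0.05 (17.2% of all genes did), 6 higher and 3 lower in set 2. Best1, a calcium-activated chloride channel gene, was at 6406 to 6922 normalized counts in set 1 and 10680 to 12536 in set 2 (log2 difference 0.82). Slc4a4, which encodes a sodium-bicarbonate cotransporter, was at 4237 to 4756 in set 1 and 2815 to 3164 in set 2 (log2 difference −0.56). The other genes higher in set 2 were Lrrc8b (0.29) and Ano6 (0.22), of volume-regulated and calcium-activated channel families, the kinase gene Sgk1 (0.15), Cab39l (0.25), which encodes a partner of SPAK and OSR1, and the anion exchanger gene Slc4a2 (0.13). The other genes lower in set 2 were the bicarbonate transporter gene Slc4a8 (−0.23) and the carbonic anhydrase gene Car2 (−0.14).

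In astrocyte cultures 39 pathway genes were tested, 0 passed at an adjusted p under 0.05 and 4 at an unadjusted p, where 0.0065% and 7.01% of all genes did. Of the 4, the groups of Hepacam, Slc4a10 and Neto2 did not overlap, as for 12.5% of all genes. Hepacam, a glial adhesion gene whose product binds ClC-2, was at 2771, 2690 and 2611 with vehicle and at 2528, 2528 and 2379 with Allo (log2 difference −0.12, adjusted p = 0.560). Slc4a10, a sodium-bicarbonate transporter gene, was at 261, 237 and 232 with vehicle and at 288, 261 and 307 with Allo (log2 difference 0.23, adjusted p = 0.686). Neto2 was at 49.2 to 56.5 with vehicle and 66.8 to 69.6 with Allo (log2 difference 0.38, adjusted p = 0.709). Best1 had a log2 difference of 0.17 (adjusted p = 0.671), and its groups overlapped.

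Genes whose log2 values followed the cotransporters most closely across libraries were listed by Pearson's r, among 12902 genes with a mean of at least 50 in neurons and 12917 in astrocytes. These values are descriptions over 8 and 6 libraries that share their normalization and, in neurons, their sets. The 5 genes closest to Slc12a5 over the neuron libraries were Gabrb2 (r = 0.991), which encodes a GABA-A receptor subunit, Syn1 (0.982), which encodes a synaptic vesicle protein, Neurod6 (0.976), a transcription factor gene of pyramidal neurons, an unnamed Ensembl gene (0.971) and Ythdc2 (0.971), which encodes an RNA helicase. Those closest to Slc12a2 in neurons were Eif3a (0.985), Slc11a2 (0.983), an unnamed Ensembl gene (0.974), Kpnb1 (0.966) and Ddx20 (0.962), of which Eif3a encodes a translation initiation factor and Slc11a2 an iron transporter. In astrocytes they were Fry, Cul1, Khdrbs1, Ddx52 and Slain1, with r from 0.980 to 0.983, and no gene was among the 5 in both cultures.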

How the data were processed

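RNA was sequenced from 8 neuron and 6 astrocyte libraries (poly(A)-selected, stranded, paired ends). From the reads, the authors estimated transcript abundance with Salmon 0.14 against Ensembl's rat annotation, collapsed it to counts per gene with tximport and scaled these by DESeq2 1.18.1. The deposited normalized counts, a signal per gene, were used, and the authors' variance-stabilized (VST) values, on a scale near log2, served as an alternative. In the neuron VST values the sets have equal means for every gene (largest difference 7.5e-09), so they cannot test the sets. Whole reads could not be recovered, and depth was estimated from the step between low values. The 9 members and all lists were chosen with earlier results of these data known.

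Genes with a mean of at least 10 were tested on log2(value + 1) with limma 3.58.1 (lmFit, eBayes with trend) in R 4.3.3, each culture alone, with Benjamini-Hochberg adjustment and 0.05 as the threshold; the procedure was first tested on simulated data. The balance had a two-sided exact permutation test. After group means were removed, same-numbered neuron libraries correlated over genes by 0.296, 0.229, 0.265 and 0.273, and those that share only the first part by 0.185 to 0.236, so the numbers were taken to pair them, mostly by their first part, and blocked values are given where they change a count. Named genes were all members, up to 5 pathway genes per culture at an unadjusted p under 0.05 with the largest differences, and the 5 genes most like Slc12a2 or Slc12a5. Alternatives were the pseudocount, VST, upper-quartile and quantile scaling, the filter, the variance estimate, replicate blocks and leaving out each library. The interaction with set and the fits within sets were chosen after seeing the data. No library pair held identical values, and 0 columns were left unused.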

Additional observations from a re-analysis of the deposited data

Results flagged for a closer look

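In AM-Veh neurons, the Slc12a2 value of library 2-2 (2924 normalized counts) stood apart from the other three (3101, 3113 and 3126), with a gap of 0.876 of the group's range, past Dixon's 95% critical value. It was the 1 group past that value among 18 groups of neuron libraries checked, and chance flags about 1 in 20.

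The Allo difference differed between the neuron sets at an unadjusted limma p under 0.05 for Slc12a5 (set 2 minus set 1, log2 0.41, adjusted p = 0.100), Wnk2 (0.16, adjusted p = 0.374) and Clcn2 (−0.31, adjusted p = 0.382). For the balance of Slc12a2 to Slc12a5, which is computed from Slc12a5 and so is not a separate result, it differed by −0.53 on the log2 scale. The exact permutation p was 0.0556, the smallest that 36 arrangements can give. It refers to no Allo difference in either set and cannot test whether the differences are equal. In set 1 both AM-Allo libraries had a higher balance than both AM-Veh libraries, and in set 2 both had a lower one. The neuron marker sum had an Allo difference of 0.03 in set 1 and 0.20 in set 2 on the log2 scale, but Syt1 and Rbfox3 among these markers were lower in both AM-Allo libraries of set 1 than in both AM-Veh libraries, and the part of the markers in these values was not tested.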

How the results depend on the processing

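No member passed at an adjusted p under 0.05 for Allo in either culture under any alternative over both sets. Within set 2 alone 1 did (Slc12a5) with 2 pathway genes, where 1.74% of all genes did. At an unadjusted p, the neuron count of 0 members became 2 with VST values, 1 with upper-quartile scaling, 2 with either replicate block, 2 within set 1 and 3 within set 2. Of all 15314 genes, 872 passed unadjusted in the main fit, 870 with upper-quartile scaling and 2204 with VST values, where the sets have equal means. With the blocks by whole and first number 10.7% and 11.0% of all genes passed, and within sets 1 and 2 7.97% and 12.5%. The 4 pathway genes in neurons became 11 with VST values, 8 with the block by whole number, 11 with that by first number and 9 within set 2, and the 4 in astrocytes became 2 without a trend and 2 with robust variance. Of all 15380 genes in astrocytes, 1078 passed unadjusted in the main fit, 994 without a trend and 1059 with robust variance. Between the sets, the 2 members called became 1 without a trend and 1 without the treatment covariate. Of all genes 2636 were called in the main fit, 1722 without a trend and 2359 without the covariate. The 3 members with an unadjusted Allo difference between the sets became 1 without a trend, where 1459 of all genes became 1241. With 1 library left out, unadjusted counts ran from 0 to 1 members and 1 to 7 pathway genes in neurons, 0 to 1 and 2 to 3 in astrocytes, and between the sets from 1 to 2 adjusted and 2 to 5 unadjusted members. Over all genes, the unadjusted counts ran from 680 to 968 in neurons and 786 to 1280 in astrocytes. Between the sets they ran from 1929 to 2527 adjusted and 3851 to 4443 unadjusted. The balance in neurons turned to 0.12 within set 1, and without 1 library ran from −0.23 to −0.059, the latter without AM-Allo 2-1. In astrocytes it ran from −0.18 to −0.013. For these changes the cause was not tested.

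Other reversals were of differences with no adjusted p under 0.05. Within set 1 the Allo difference was −0.14 for Slc12a5, 0.043 for Slc12a4, 0.028 for Wnk1 and −0.028 for Wnk2, and within set 2 −0.024 for Slc12a7 and −0.078 for Clcn2. Oxsr1 in astrocytes became −0.0038 with upper-quartile scaling, and Clcn2 between the sets −0.0070 with quantile normalization. Leaving out 1 library gave −0.040 to 0.010 for Slc12a4, −0.073 to 0.15 for Slc12a7 and −0.025 to 0.010 for Wnk1 in neurons, −0.020 to 0.093 for Slc12a2, −0.0071 to 0.038 for Slc12a7 and −0.0097 to 0.028 for Oxsr1 in astrocytes, and −0.048 to 0.0040 for Oxsr1 and −0.028 to 0.086 for Clcn2 between the sets. The replicate block changed no other call. For the neuron balance the exact permutation p was 0.5 with the whole number as block and 0.333 with its first part. Neither block leaves enough arrangements for a p under 0.05, so the balance could not be called there. Astrocyte numbers do not pair their libraries (correlations −0.007 to 0.024), and the block called 0 members there. VST values could not be used between the sets, and the balance per kilobase was not run, since no transcript lengths were at hand. With 3 or 4 libraries a group, and 2 within a set, small differences were not detectable.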
